A study of Mus musculus with 6 samples.

Results

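Complex I, or NADH:ubiquinone oxidoreductase, is the entry point of electrons from NADH into the mitochondrial respiratory chain. The genes described here are 35 of its nuclear-encoded subunits, chosen by symbol in the GENCODE M21 annotation of mouse build GRCm38, among 46983 genes in the count table. Each symbol matched 1 row of the table. RNA was sequenced from wild-type mouse islets, the endocrine cell clusters of the pancreas, after 24 h of culture in CMRL medium at non-stimulating (low) or stimulating (high) glucose. Each of the 2 groups had 3 libraries, labelled as beta cells and islets of the pancreas. The sources used here do not give glucose concentrations, strain, age or how many animals a library holds. No label states that the 3 libraries of a group are different animals or cultures, and the p-values therefore cover the spread among these libraries, which could be technical.

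Complex I is an L-shaped assembly. Its matrix arm takes electrons from NADH onto a flavin, passes them along a chain of iron-sulfur clusters and delivers them to ubiquinone, and its membrane arm pumps protons. A small set of core subunits does the catalysis, the pumping core is encoded by the mitochondrial genome, and many accessory subunits surround the core. In beta cells, oxidation of glucose by the mitochondria raises the ATP to ADP ratio, which closes KATP channels and starts insulin secretion.

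Library totals ranged from 10596020 to 15846235 counts. The TMM factors that scale them were 0.941, 0.568 and 0.544 at low and 1.79, 1.37 and 1.40 at high glucose, replicates 1 to 3 in order. The factors of the 2 groups did not overlap, so the scaling differed with the glucose group. TMM (trimmed mean of M-values) sets library sizes so that most genes do not differ. The islet label was met by hormone and granule genes, which took 2.35% to 4.98% of the counts at low and 4.12% to 11% at high glucose. Acinar cell markers, genes of the digestive enzymes of the exocrine pancreas, took 48.9% to 64.7% at low and 12.6% to 25% at high glucose, with 3 of the 33 listed markers at 0 counts in every library. Intestinal epithelium markers (17 genes, none at 0) took 0.130% to 0.664% and 0.0207% to 0.0410%, and duct cell markers (8 genes, none at 0) 0.0390% to 0.0519% and 0.219% to 0.505%. The higher duct sum was carried by a part of that list. With TMM scaling, 5 of its 8 genes had a log2 fold change (high minus low glucose) below 0 (median -0.27, highest 3.39). In bulk RNA, fewer cells of a type and less RNA per cell cannot be told apart. The part of these differences in the results on complex I was not tested. Fits that leave out marker genes, or set library sizes without the acinar markers, are given below with the calls each one left.

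Relative to TMM scaling, transcripts of complex I subunits were lower at high glucose, whereas with library totals as the scaling they were higher by less than the median gene. Of the 33 subunits that passed the filter on low counts, 18 fell at high glucose and 0 rose in edgeR's quasi-likelihood test, at a Benjamini-Hochberg adjusted p under 0.05 over 13996 genes. Over all genes tested, 27.5% passed, of which lower calls were 14.2% of the genes and higher calls 13.3%. The median log2 fold change (high minus low) was -0.65 over the 33 subunits and 0.01 over all genes tested, and 31 of the 33 were below 0. For 26 of the 33 every high glucose library lay below every low glucose library, against 22.4% of all genes tested, and for 1, Ndufc2, every high glucose library lay above, against 23.5%. The 18 that fell did so by 1.42-fold to 2.50-fold, with adjusted p from 0.00732 to 0.0391. Ndufc2 was the 1 subunit higher at an unadjusted p below 0.05. The number called higher was 0 by DESeq2 and by limma-voom too.

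The direction depended on what the subunits were measured against. When libraries were scaled by their totals, the median of all genes moved to 1.16 and that of the subunits to 0.58, and 0 subunits fell while 12 rose, against 59.7% of all genes called higher under that scaling. When the hormone and granule genes set the library sizes, the subunit median was -0.60 but 0 passed in either direction. Fewer of all genes passed too, with 8.64% lower and 5.15% higher. With the acinar, intestinal and hormone genes left out before scaling, the same 18 fell and the median was -0.63. With library sizes set by the totals outside the acinar markers, 8 of the 18 fell and 1 subunit (Ndufc2) rose, against 10% and 22.2% of all genes, and the subunit median was -0.40. Across the 17 alternatives tried, the subunit median lay 0.58 to 0.81 below the median of all genes, and 0.66 below it in the fit reported here. A change of scaling moves all genes by a similar amount, so this distance could hardly differ between scalings. The other alternatives refitted the same libraries or all but 1 of them, and the 17 are not independent checks.

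**Figure D1:**
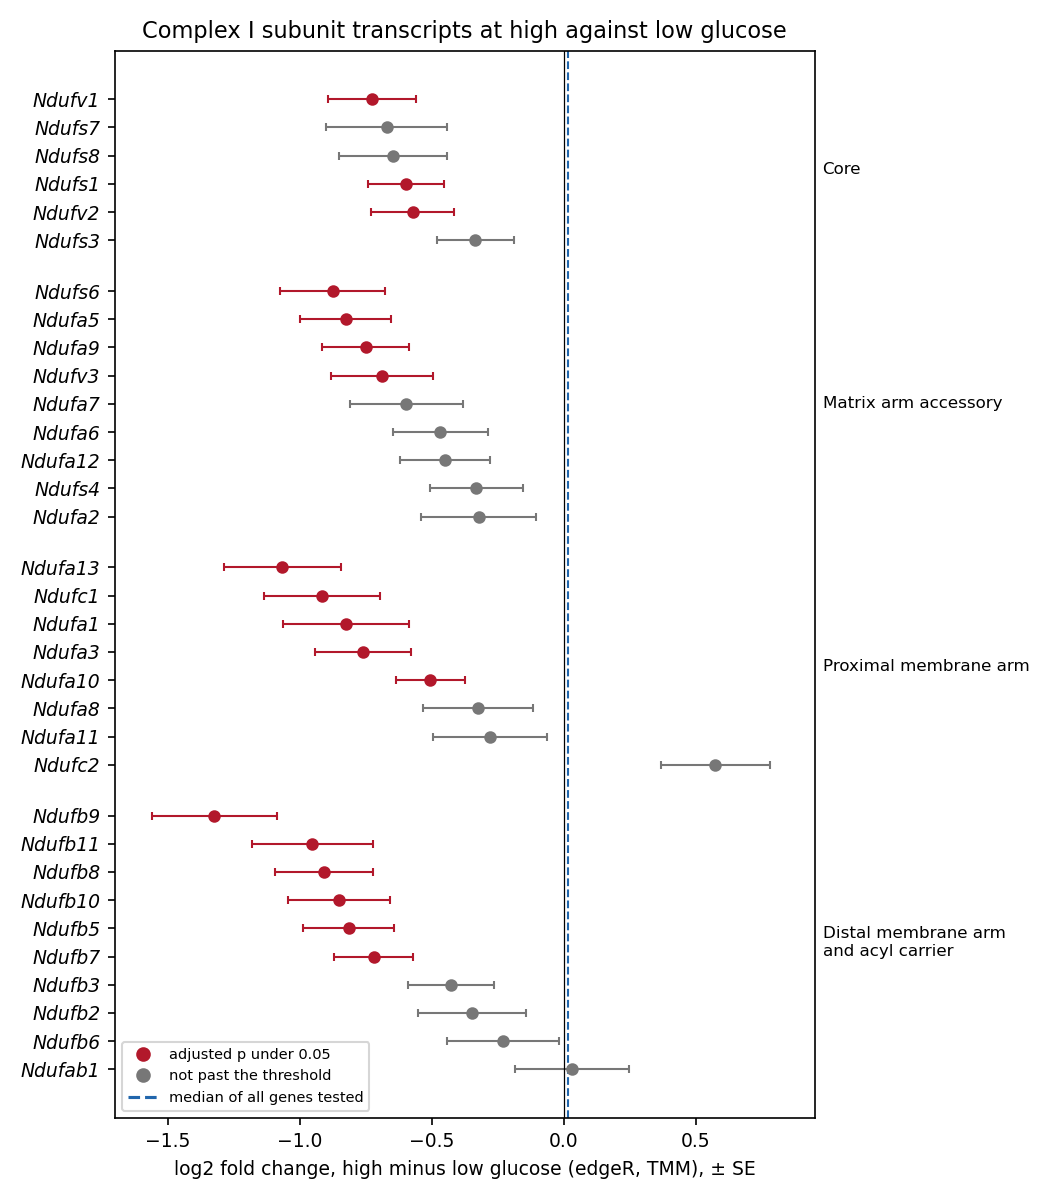
Log2 fold change (high minus low glucose, TMM scaling, x axis) with its standard error for the 33 subunits tested, grouped by place in the complex. Red points passed the test, grey points did not, and the dashed line is the median of all genes tested (0.01). Of the 33 points, 31 lie left of 0, and Ndufc2 and Ndufab1 lie right of it.

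The call for a given subunit rested on few libraries. Of the 18, only Ndufb9 passed with each of the 6 libraries left out in turn, and Ndufa5 and Ndufb8 passed in 5 of the 6 fits. The number that fell was 2 without low glucose replicate 2 (Ndufa5 and Ndufb9) and 2 without high glucose replicate 3 (Ndufb8 and Ndufb9). It was 6 without low glucose replicate 3, 4 without high glucose replicate 2, 20 without low glucose replicate 1 and 21 without high glucose replicate 1. The share of all genes that fell was 7.11% without low glucose replicate 2, 8.19% without high glucose replicate 3 and 10.2% without high glucose replicate 2, so that the subunits' numbers in these 3 fits were near the background. It was 10.9% without low glucose replicate 3, 11.1% without low glucose replicate 1 and 20.5% without high glucose replicate 1. The subunit median stayed between -0.78 and -0.54 in these 6 fits. Low glucose replicate 1 was the lowest of the low glucose libraries for 31 of the 33 subunits. High glucose replicate 1 was the highest of the high glucose libraries for 22.

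The core subunits carry the flavin and the iron-sulfur clusters, and 3 of the 6 fell (median -0.62). Ndufv1, which holds the flavin that accepts electrons from NADH, had 50.1, 66.0 and 66.0 CPM at low glucose, replicates 1 to 3 in order, and 39.6, 32.0 and 38.4 CPM at high glucose, where CPM are counts per 1e+06 of the TMM-scaled library size. All 3 high glucose libraries were below the low ones, and the log2 fold change was -0.73 ± 0.17 (SE, adjusted p = 0.0178). Ndufv2, its iron-sulfur partner at the tip of the arm, had 46.0, 56.7 and 58.5 CPM at low and 40.7, 32.7 and 34.8 CPM at high glucose. Its groups did not overlap either, and it fell by 0.57 ± 0.16 on the log2 scale. Ndufs1, the largest subunit, with several of the clusters, had 58.1, 65.3 and 66.2 CPM at low and 46.6, 41.6 and 37.0 CPM at high glucose. It fell by 0.60 ± 0.14 with adjusted p = 0.0211. With library totals each of the 3 was above 0, and none of them passed under that scaling, the hormone gene scaling or the totals without acinar markers. With no filter on low counts Ndufv1 passed, while the Ndufv2 log2 fold change (adjusted p = 0.0857) and the Ndufs1 log2 fold change (adjusted p = 0.0612) did not. The number of core subunits that fell was 0 without low glucose replicate 2, low glucose replicate 3, high glucose replicate 2 or high glucose replicate 3, and 5 without low glucose replicate 1.

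The other 3 core subunits sit nearer to the ubiquinone site and did not pass, although their groups did not overlap. Ndufs7, which carries the last cluster before ubiquinone, had 17.2, 28.8 and 29.6 CPM at low and 15.1, 15.8 and 16.3 CPM at high glucose (log2 -0.67 ± 0.23, adjusted p = 0.0636). With the replicate number as a block its adjusted p was 0.0494. Ndufs8, which carries a further pair of clusters, had 23.8, 37.9 and 34.6 CPM at low and 22.04, 18.3 and 20.9 CPM at high glucose (-0.65 ± 0.20, adjusted p = 0.0514). In both genes low glucose replicate 1 lay close to the high glucose libraries. Ndufs3, a core subunit without a cofactor, had 19.4, 21.3 and 20.4 CPM against 16.8, 15.2 and 16.4 CPM, a small difference (-0.33 ± 0.15, adjusted p = 0.124) with little spread within a group.

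**Figure D2:**
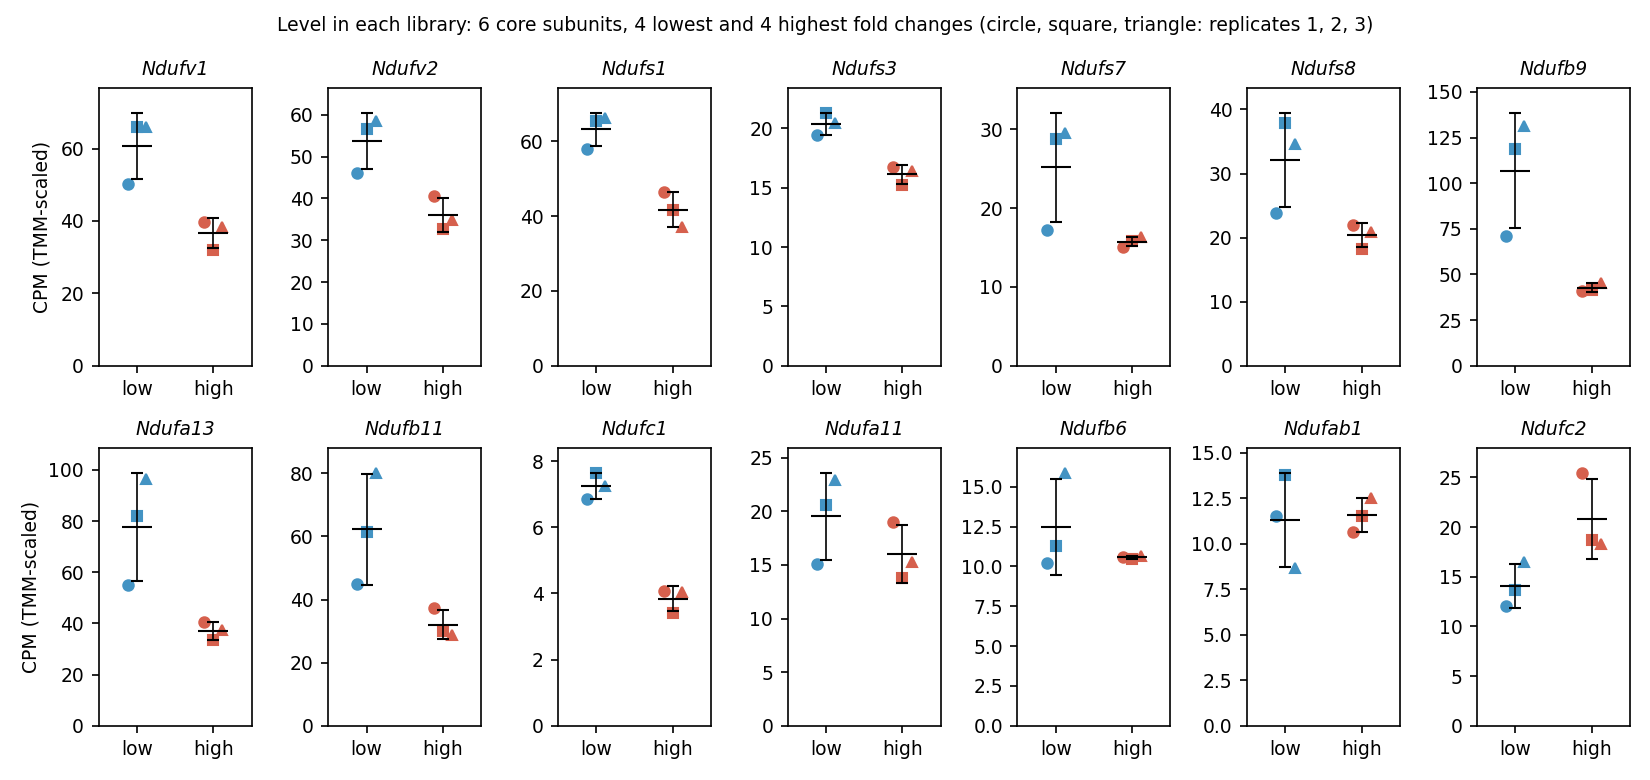
TMM-scaled CPM (y axis, from 0) in each library at low and high glucose for the 6 core subunits and the 4 subunits each with the lowest and the highest log2 fold change; horizontal bars are means with SD (n = 3 each). In Ndufb9 the 3 high glucose libraries lie between 41.1 and 45.5 CPM, below the lowest low glucose library at 71.1 CPM, while in Ndufab1 the groups overlap.

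Of the 9 accessory subunits of the matrix arm, 4 fell and the median was -0.60, with 0 to 5 in the fits with a library left out (0 without high glucose replicate 3, 1 without low glucose replicate 2, low glucose replicate 3 or high glucose replicate 2). These were Ndufs6, a zinc-binding subunit (-0.88 ± 0.20), Ndufa5 (-0.83 ± 0.17), Ndufa9, a dehydrogenase-like subunit that binds NADPH (-0.75 ± 0.17), and Ndufv3 (-0.69 ± 0.19). Ndufa5 ranged from 21.6 to 26.4 CPM at low and from 12.3 to 15.9 CPM at high glucose, a narrow spread in both groups. The 5 that did not pass were Ndufa7 (-0.60), Ndufa6 (-0.47), Ndufa12 (-0.45), Ndufs4 (-0.33) and Ndufa2 (-0.32). Ndufa6, which belongs to the LYR family of proteins that bind the acyl carrier, passed with the replicate block (adjusted p = 0.0439). The groups overlapped for Ndufs4, a subunit whose human gene is mutated in Leigh syndrome, and for Ndufa2.

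The proximal membrane arm joins the matrix arm, and 5 of its 8 tested accessory subunits fell (median -0.63). The number was 0 without low glucose replicate 2 or high glucose replicate 3 and 1 without low glucose replicate 3 or high glucose replicate 2. Ndufa13, also known as GRIM-19, lies on chromosome 8 (69894180 to 69902558, GRCm38, minus strand). It had 54.9, 81.8 and 96.6 CPM at low and 40.4, 33.4 and 37.4 CPM at high glucose. It fell 2.09-fold (log2 -1.07 ± 0.22, adjusted p = 0.0124), with every high glucose library below every low one. The calls for Ndufa1 (-0.82 ± 0.24), Ndufa3 (-0.76 ± 0.18) and the kinase-like Ndufa10 (-0.51 ± 0.13) were in the same direction. Ndufa8 (-0.32 ± 0.21) did not pass. Ndufa11 had 15.1, 20.6 and 23.0 CPM against 19.0, 13.8 and 15.3 CPM, so that the groups overlapped (-0.28 ± 0.22, adjusted p = 0.368).

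Ndufc1 and Ndufc2 encode small subunits of this arm and had log2 fold changes of opposite sign. Ndufc1, on chromosome 3 (51404677 to 51408988), had 6.86, 7.65 and 7.23 CPM at low and 4.07, 3.40 and 4.03 CPM at high glucose. It fell by 0.92 ± 0.22 on the log2 scale (adjusted p = 0.0211). Its counts per library went down to 46, the lowest of the 33, and it passed in 1 of the 6 fits with a library left out. Ndufc2, on chromosome 7 (97400003 to 97407802), had 12.1, 13.6 and 16.5 CPM at low and 25.5, 18.7 and 18.3 CPM at high glucose. Its libraries did not overlap, and its log2 fold change of 0.57 ± 0.21 did not pass (adjusted p = 0.0762). It was above 0 in all 17 alternatives and passed with library totals (1.79) and with totals without the acinar markers. Within a library, which needs no scaling, there were 1.76, 1.78 and 2.28 Ndufc2 counts per Ndufc1 count at low and 6.26, 5.51 and 4.55 at high glucose. The pair was set side by side after its values were seen, and the difference of the ratio was not tested.

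Promoter sequences are shown for these 2 subunits and for Ndufb8 and Ndufs6, which fell and hold letters searched for below. Other subunits that fell, among them Ndufa13, Ndufb10 and Ndufb11, hold no NRF1, ETS or YY1 letters in their windows. RefSeq windows on GRCm38.p6 run from 250 bases before to 50 bases after a transcript start and so include the first bases of the transcript. They are chr3:51408906-51409205 (minus strand), chr7:97399753-97400052 (plus strand), chr19:44555393-44555692 (minus strand) and chr13:73328433-73328732 (minus strand). Capitals mark matches to the NRF1, ETS or YY1 letters, and the Ndufc2 window holds none.
Ndufc1: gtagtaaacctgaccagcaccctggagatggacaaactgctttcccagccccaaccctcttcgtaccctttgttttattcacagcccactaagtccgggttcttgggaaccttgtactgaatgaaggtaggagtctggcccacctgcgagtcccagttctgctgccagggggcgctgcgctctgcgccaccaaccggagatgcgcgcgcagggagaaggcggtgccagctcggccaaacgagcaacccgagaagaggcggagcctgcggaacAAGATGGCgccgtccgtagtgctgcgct
Ndufc2: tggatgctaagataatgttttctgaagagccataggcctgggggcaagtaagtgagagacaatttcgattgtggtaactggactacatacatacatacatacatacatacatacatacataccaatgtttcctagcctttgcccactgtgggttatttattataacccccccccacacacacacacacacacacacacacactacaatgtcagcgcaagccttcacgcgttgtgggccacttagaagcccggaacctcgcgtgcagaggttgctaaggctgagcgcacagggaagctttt
Ndufb8: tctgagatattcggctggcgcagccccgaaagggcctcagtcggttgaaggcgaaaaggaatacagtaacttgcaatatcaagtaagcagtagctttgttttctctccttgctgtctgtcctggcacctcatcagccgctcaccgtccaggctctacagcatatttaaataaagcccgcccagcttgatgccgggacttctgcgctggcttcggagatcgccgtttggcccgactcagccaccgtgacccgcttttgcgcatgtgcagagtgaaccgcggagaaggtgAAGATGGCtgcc
Ndufs6: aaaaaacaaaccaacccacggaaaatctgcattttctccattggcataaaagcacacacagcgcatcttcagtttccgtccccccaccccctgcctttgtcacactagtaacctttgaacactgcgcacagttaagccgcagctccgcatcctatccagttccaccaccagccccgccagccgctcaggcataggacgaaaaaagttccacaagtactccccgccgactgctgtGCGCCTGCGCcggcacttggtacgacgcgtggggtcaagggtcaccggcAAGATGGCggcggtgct

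NRF1, the ETS factor GABP, YY1 and the estrogen-related receptors are known regulators of nuclear respiratory genes. RefSeq windows were found for 32 of the 35 subunits, and all motifs were searched on both strands. The NRF1 consensus, with any base at its centre, was in the windows of 7 of the 32 (21.9%), against 4.60% of all 32851 windows and 9.04% of those of tested genes. The YY1 letters AAGATGGC were also in 7 of the 32, against 2.75% of all windows and 4.05% of those of tested genes. All 7 YY1 matches lay on the sense strand, which reads as the RNA does, 23 to 39 bases after the start site. These letters include an ATG. The 7 genes were Ndufa3, Ndufa9, Ndufb8, Ndufc1, Ndufs4, Ndufs6 and Ndufs7, of which 5 fell, against 18 of all 33 subunits tested. Of the 5 tested subunits with the NRF1 letters, 2 fell (Ndufa5 and Ndufs6). The ETS letters CCGGAAG were in 4 of the 32 (12.5%, against 8.86% of all windows and 15.95% of those of tested genes). The estrogen-related receptor letters TCAAGGTCA were in 0 (0.42% of all windows and 0.26% of those of tested genes). Of the 4 subunits with the ETS letters 1 fell. The CCAAT letters were in 10 of the 32 (31.2%, against 37.41% of all windows and 36.94% of those of tested genes), with 4 of the 9 tested lower. TATAAA was in 4 (12.5%, against 13.62% of all windows and 7.86% of those of tested genes), with 2 of 4 lower. No 2 motifs overlapped in these windows. A match is a description of letters and not a measured site.

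The distal membrane arm holds the Ndufb subunits, and with the acyl carrier Ndufab1 6 of 10 tested fell (median -0.77). The number was 1 without low glucose replicate 2, 2 without high glucose replicate 2 or high glucose replicate 3, and 4 without low glucose replicate 3. Ndufb9, another LYR-family protein, lies on chromosome 15 (58933756 to 58939488, plus strand). It had 71.1, 118.5 and 131.1 CPM at low and 41.1, 41.4 and 45.5 CPM at high glucose, the largest fall among the 33 (2.50-fold, log2 -1.32 ± 0.24, adjusted p = 0.00732). Low glucose replicate 1 was well below the other low glucose libraries and still above all high glucose ones. Ndufb9 was the only subunit below 0 with library totals (-0.08, not passed). Ndufb11, on chromosome X (20615326 to 20617619), had 45.0, 61.5 and 80.2 CPM at low and 37.4, 30.2 and 28.7 CPM at high glucose and fell by 0.95 ± 0.23. The other subunits of this arm that fell were Ndufb8 (-0.91 ± 0.19), Ndufb10 (-0.85 ± 0.19), Ndufb5 (-0.81 ± 0.17) and Ndufb7 (-0.72 ± 0.15).

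The remaining 4 genes of this group did not pass. Ndufb3 (-0.43) and Ndufb2 (-0.35) had groups that did not overlap. Ndufb6 had 10.2, 11.3 and 15.9 CPM at low and 10.6, 10.5 and 10.7 CPM at high glucose, with 1 low glucose library apart from the rest (-0.23 ± 0.21, adjusted p = 0.451). Ndufab1, which serves in mitochondrial fatty acid synthesis as well as in complex I, had 11.6, 13.8 and 8.65 CPM against 10.7, 11.5 and 12.6 CPM. Its log2 fold change was 0.03 ± 0.21 (adjusted p = 0.926), and its sign turned without low glucose replicate 3 (-0.11) and without high glucose replicate 3 (-0.02). A difference this small was not detectable with 3 libraries a group.

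Between genes, levels were compared per kb of exonic sequence. Ndufa1 (106 CPM per kb at low, 59.8 at high glucose) and Ndufb9 (104 and 41.4) were the highest in both groups. At low glucose Ndufb11 (68.5) and Ndufa13 (62.2) came next, whereas at high glucose Ndufa2 (38.4) lay above Ndufb11 (35.3) and Ndufa6 (31.0) above Ndufa13 (29.6). The median over the 33 tested was 18.6 CPM per kb at low and 13.5 at high glucose. The lowest tested were Ndufb2 (1.31 and 1.03) and Ndufab1 (1.65 and 1.68). Both have a long annotated exonic length (5628 and 6883 bases over all transcripts), which lowers the value per kb. Ndufc2 stood at 18.6 CPM per kb at low and 27.6 at high glucose.

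**Figure D3:**
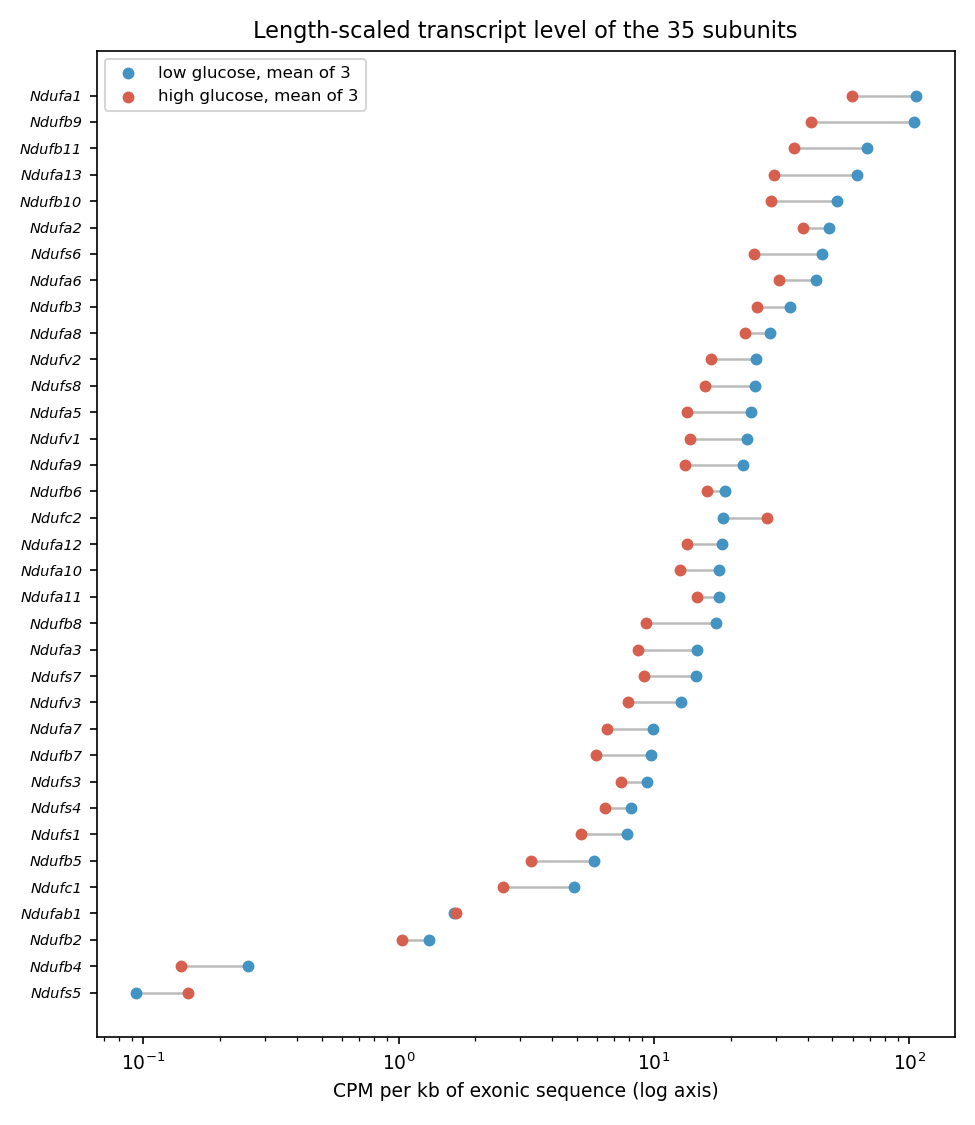
Mean level of each of the 35 subunits in CPM per kb of exonic sequence (log x axis), at low (blue) and high (red) glucose, ordered by the level at low glucose. Ndufc2 has its high glucose point clearly right of the low one, and Ndufs5 and Ndufb4, at the bottom, lie below the filter on low counts.

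For Ndufs5 and Ndufb4 hardly any reads were counted, and both stayed below the filter. Ndufs5 had 1, 0 and 1 counts at low and 1, 3 and 4 at high glucose, and Ndufb4 had 8, 3 and 2 against 10, 5 and 4. A processed pseudogene named BC002163 shares 21.7% of the 50-base words of Ndufs5 transcripts and had 117, 70 and 92 counts at low and 270, 145 and 158 at high glucose. The level of BC002163 did not pass the test (log2 -0.53 ± 0.22, adjusted p = 0.115). Ndufb4 shares 37.0% of its words with the processed pseudogene Ndufb4c, which had 0 counts in every library. Whether reads of these 2 subunits were lost to copies was not tested. Of the 33 tested subunits, 15 shared no 50-base word with transcripts of other annotated genes, and 9 of these 15 fell (median -0.67), as did 9 of the other 18 (median -0.60).

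Exons of 11 of the 35 subunits overlap a protein-coding gene on the opposite strand, and without a stated strand setting such reads could not be told apart. The largest of these overlaps, 616 bases, is between Ndufb5, which fell, and Mrpl47 (log2 0.36 ± 0.20, adjusted p = 0.207). Rbm10 overlaps Ndufb11 by 117 bases and did not pass (-0.18 ± 0.13). Vmac, which overlaps Ndufa11 by 70 bases, fell by 0.74 ± 0.21 while Ndufa11 itself did not pass.

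Ratios within a library do not depend on the scaling between libraries. As a share of all counts the 35 subunits took 0.0951%, 0.0761% and 0.0781% at low and 0.149%, 0.102% and 0.110% at high glucose, so that they were higher in every high glucose library. Per 1e+06 counts outside the acinar markers they took 1863, 2159 and 2079 at low and 1703, 1363 and 1446 at high glucose, which is lower in every high glucose library. Per 100 counts of hormone and granule genes there were 1.91, 3.24 and 3.08 subunit counts at low and 1.36, 2.48 and 2.30 at high glucose. The groups overlapped, and the ratio was lower at high glucose within each of the 3 same-numbered pairs, although no label states that such libraries belong together. Per count of complex I assembly factors there were 6.31, 7.52 and 7.64 subunit counts at low and 5.12, 4.26 and 4.31 at high glucose, without overlap.

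Within the set, the distal arm and Ndufab1 made up 31.8%, 33.5% and 33.7% of subunit counts at low and 29.5%, 28.8% and 29.1% at high glucose. Ndufb9 alone went from 7.02%, 8.84% and 9.13% to 4.93%, 5.54% and 5.82%. Both shares were lower in every high glucose library, whereas the core subunits, at 19.2% to 21.2% and 20.8% to 21.7%, overlapped and were higher at high glucose within each of the 3 same-numbered pairs. Complex I made up 26.8%, 29.3% and 30.1% of the counts of complexes I, III, IV and ATP synthase at low and 27.7%, 26.7% and 27.7% at high glucose. These groups overlapped, and the share was lower at high glucose in 2 of the 3 same-numbered pairs and higher in 1. None of these ratios was tested.

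**Figure D4:**
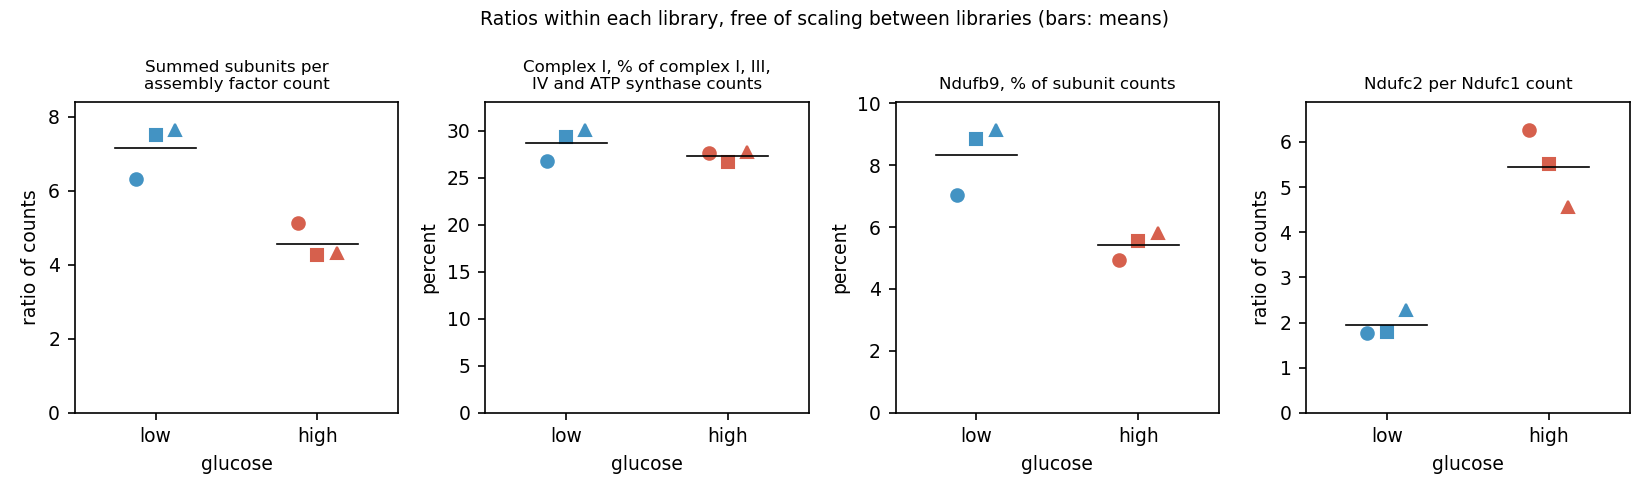
Ratios of counts within each library at low and high glucose (y axes from 0; bars are means of 3). The subunits per assembly factor count and the Ndufb9 share are lower in every high glucose library and the Ndufc2 to Ndufc1 ratio is higher, while the share of complex I among the respiratory complexes overlaps between the groups.

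Of 18 assembly factors, proteins that join the subunits but are not part of the finished complex, 0 passed by edgeR in either direction. The number at an unadjusted p below 0.05 was 0, as were the calls by DESeq2 and by limma-voom. Their median log2 fold change was 0.05, with the lowest at -0.48 for Ecsit (adjusted p = 0.186). With library totals, where 59.7% of all genes rose, 15 of the 18 assembly factors and 12 of the 33 subunits did. The difference between subunits and assembly factors was not itself tested. The 18 assembly factors had lower summed levels (161 to 188 CPM in a library) than the 35 subunits (747 to 1437 CPM). These sums run over lists of unequal length.

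The mitochondrial genome encodes the pumping core, and its transcripts were hardly counted. Of the 7 such subunit genes 3 had no count in any library and 2 could be tested. Neither mt-Nd1 (-0.74 ± 0.39) nor mt-Nd2 (-1.36 ± 0.47) passed, and without high glucose replicate 1 there was 1 that did.

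Complex II and the other routes of electrons to ubiquinone also had members that fell with TMM scaling, under which 14.2% of all genes fell. All 4 complex II genes fell (median -0.70), with Sdhb, its iron-sulfur subunit, from 80.6 ± 14.98 to 37.5 ± 2.82 CPM (SD, n = 3 each; log2 -1.10 ± 0.17) and the flavin subunit Sdha by 0.79 ± 0.17. Of 6 genes of other routes 3 fell, among them Etfa, a subunit of the electron transfer flavoprotein of fatty acid oxidation (-1.29 ± 0.14), and Etfb (-1.41 ± 0.35). With library totals 0 genes of either list fell and 3 of the other routes rose, against 4.49% and 59.7% of all genes. Under hormone gene scaling 1 of these 10 fell, against 8.64% of all genes. With 1 library left out, 1 (without low glucose replicate 2, high glucose replicate 2 or high glucose replicate 3) to 4 (without high glucose replicate 1) complex II genes fell. In the same order of fits, 7.11%, 10.2%, 8.19% and 20.5% of all genes fell.

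Downstream of ubiquinone, of 9 complex III genes 5 fell (median -0.60), of 11 complex IV genes 9 fell (median -0.58) and of 15 ATP synthase genes 9 fell (median -0.52), with 0 higher in each list. The complex I share was 18 of 33 (median -0.65). Of all genes tested, 14.2% fell and 13.3% rose. The smallest p-values were those of Uqcr11 (-0.97 ± 0.19) and Uqcrfs1 (-0.64 ± 0.13) in complex III, Cox7b (-0.92 ± 0.15) and Cox6c (-0.86 ± 0.15) in complex IV, and Atp5o (-1.24 ± 0.16) and Atp5j2 (-0.93 ± 0.14) in ATP synthase. With library totals or hormone gene scaling 0 of these 35 genes fell, against 4.49% and 8.64% of all genes. With library totals 3 complex III, 1 complex IV and 5 ATP synthase genes rose, against 59.7% of all genes. In the order complex III, complex IV and ATP synthase, the numbers were 0, 2 and 3 without low glucose replicate 2 and 1, 2 and 4 without high glucose replicate 3. They were 4, 2 and 4 without high glucose replicate 2, 4, 5 and 4 without low glucose replicate 3 and 6, 6 and 9 without low glucose replicate 1. The share of all genes that fell was 7.11% without low glucose replicate 2 and 8.19% without high glucose replicate 3. It was 10.2% without high glucose replicate 2, 10.9% without low glucose replicate 3 and 11.1% without low glucose replicate 1.

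Iron-sulfur clusters are made by a separate set of mitochondrial proteins. Of 14 of their genes 1 rose and 0 fell (median -0.09), against 13.3% and 14.2% of all genes tested. With library totals 12 rose, against 59.7% of all genes. At an unadjusted p below 0.05, Nfs1 (-0.70) and Iscu (-0.46) were lower and Iba57 (0.60) and Fdx1l (0.98) higher without passing. The gene that rose was Hspa9, the mitochondrial Hsp70 chaperone (1.12 ± 0.26, adjusted p = 0.0179). In this list 0 rose under hormone gene scaling, and likewise without low glucose replicate 1, low glucose replicate 2, high glucose replicate 2 or high glucose replicate 3. Of all genes, 5.15% rose under hormone gene scaling and 4.86% to 7.71% in these fits with a library left out.

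Among 13 transcription factors and coactivators of respiratory genes, 2 rose and 2 fell, near the 13.3% and 14.2% of all genes tested. With library totals 9 rose and 0 fell, against 59.7% and 4.49% of all genes. Under hormone gene scaling 0 rose and 1 fell, against 5.15% and 8.64% of all genes. The number that fell was also 1 without low glucose replicate 2 or high glucose replicate 3, against 7.11% and 8.19% of all genes. The coactivator Ppargc1b fell from 3.12 ± 0.895 to 0.748 ± 0.243 CPM (SD, n = 3 each; log2 -2.03 ± 0.40, adjusted p = 0.0105). Tfb1m, a mitochondrial rRNA methyltransferase gene, fell by 1.33 ± 0.27. Gabpb1, a GABP subunit (0.75 ± 0.21), and the coactivator Pprc1 (0.66 ± 0.20) rose. In this list 0 rose by limma-voom and in each fit with a library left out except that without high glucose replicate 1. In that fit 4 rose, against 19.8% of all genes. Ppargc1a, which encodes the coactivator PGC-1 alpha, had 8.29, 10.5 and 4.88 CPM at low and 11.9, 3.94 and 2.22 CPM at high glucose, with overlapping groups and a wide spread (-0.38 ± 0.60, adjusted p = 0.671).

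**Figure D5:**
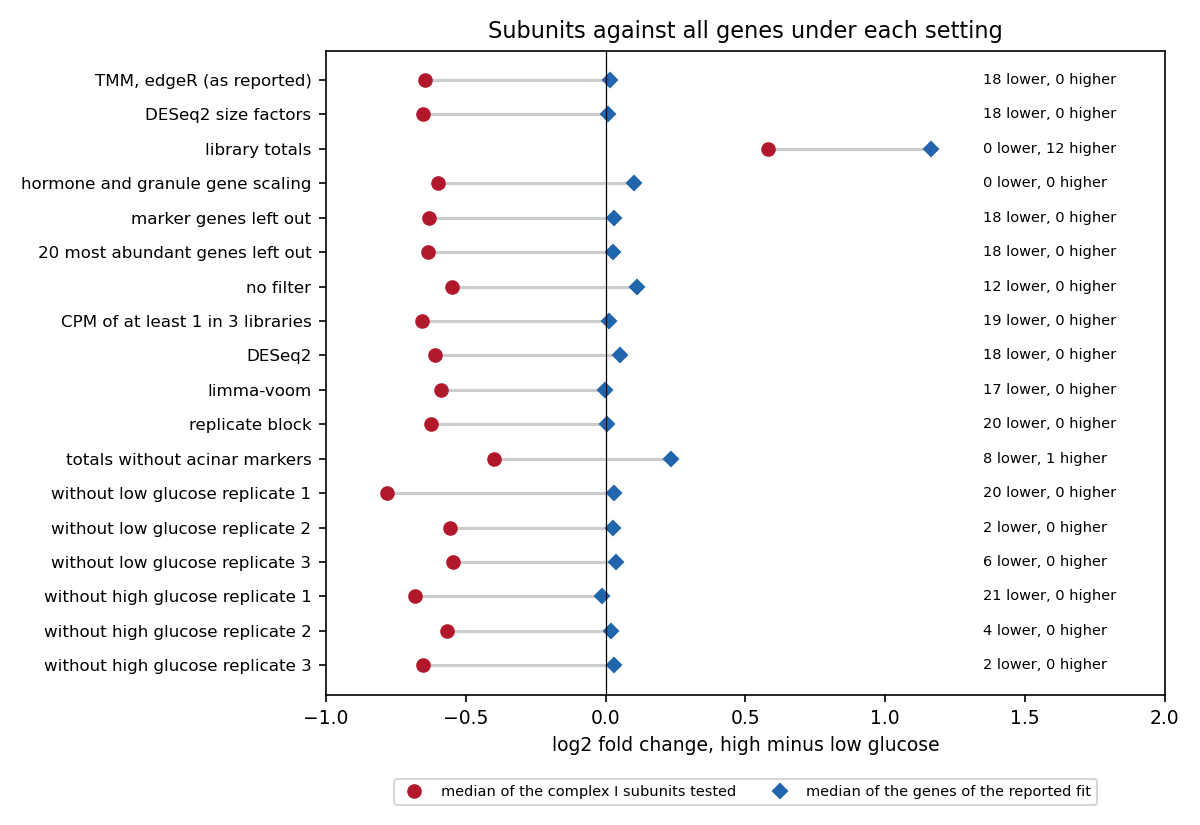
Median log2 fold change (high minus low glucose, x axis) of the complex I subunits (red) and of all genes tested in the reported fit (blue) under each setting, with the number of subunits that passed in each direction at the right. The red point lies left of the blue one in every setting, while the sign of the subunit median is above 0 with library totals only. A change of scaling moves both points by a similar amount, so their distance could hardly differ between scalings.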

How the data were processed

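Poly-A RNA of 6 islet libraries (500 ng of total RNA, 9 PCR cycles, per the labels' protocols) was sequenced, and the authors deposited raw counts per gene in 1 table. The tools named in the submitters' processing notes are STAR 2.7.3a and HTSeq 0.6.1p1, and the build is GRCm38. Annotation release, strand setting and any use of molecular barcodes are not given in the sources used here. Names came from GENCODE M21, and 495 genes with 0.0141% of counts had none.

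The groups were compared with edgeR 4.0.16 (quasi-likelihood F-test, R 4.3.3), with TMM scaling, filterByExpr (minimum count 10, total 15) and a Benjamini-Hochberg adjusted p under 0.05 over 13996 genes. Each SE is the log2 fold change over the square root of F. Alternatives used DESeq2 1.42.0, limma 3.58.1, other scalings and filters, a replicate block and leaving out each library. Totals without acinar markers were added after the data were seen. The fit was run on simulated counts in which a small set of genes changed, equally in both directions. That setting cannot test how the scaling of these libraries affects the calls. Tested subunits had 46 to 1317 counts in a library. Without stated molecular barcodes, the precision implied by the size of a count alone covers counting error only. The SE and p-values also take in the spread among the libraries of a group.

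Members, lists and naming rule were chosen with earlier results of these data known. The rule gave values in every library for the core subunits and the 4 lowest and 4 highest fold changes, and the 2 smallest p in each direction from the other lists, and Ppargc1a. Same-numbered libraries deviated together (correlations 0.40, 0.26 and 0.25 over genes), against -0.31 to 0.07 for differently numbered ones. Deviations from the mean of a group's 3 libraries are tied to each other, so these values do not settle a pairing, and no label states one. The block called 20 subunits lower, 18 of them those of the fit without it. Shared 50-base words were counted on GENCODE M21 transcripts. Figures used matplotlib 3.10.9.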

Additional observations from a re-analysis of the deposited data

How the results depend on the processing

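With library totals, where the median of all genes was 1.16, 0 subunits fell and 12 rose, with 8349 genes higher at high glucose and 629 genes lower at high glucose. The log2 fold changes that turned upward there were 0.18 for Ndufa13, 0.25 for Ndufc1, 0.29 for Ndufb11, 0.31 for Ndufb8, 0.33 for Ndufa5, 0.35 for Ndufs6, 0.38 for Ndufb10, 0.39 for Ndufb5, 0.42 for Ndufa3, 0.43 for Ndufa1, 0.46 for Ndufa9, 0.48 for Ndufb7, 0.48 for Ndufv1, 0.53 for Ndufv3, 0.56 for Ndufs7, 0.58 for Ndufs8, 0.59 for Ndufs1, 0.62 for Ndufa7, 0.63 for Ndufv2, 0.66 for Ndufa10, 0.70 for Ndufa6, 0.75 for Ndufa12, 0.77 for Ndufb3, 0.83 for Ndufb2, 0.83 for Ndufs3, 0.85 for Ndufs4, 0.90 for Ndufa8, 0.92 for Ndufa2, 0.95 for Ndufa11 and 0.97 for Ndufb6. Hormone and granule gene scaling called 0 subunits lower, with 721 genes higher and 1209 lower. Totals without acinar markers called 8 subunits lower and 1 higher, with 3108 genes higher, and turned the Ndufb6 log2 fold change to 0.014. With 1 library left out, 2 to 21 subunits fell, 708 to 2793 genes rose and 1035 to 2892 genes fell, and the Ndufab1 log2 fold change ranged from -0.11 to 0.20 (-0.11 without low glucose replicate 3, -0.02 without high glucose replicate 3). DESeq2 size factors, DESeq2, limma-voom, the filters and the genes left out gave 12 to 19 subunits lower and 0 higher. The replicate block gave 20 lower (Ndufa6 and Ndufs7 added), and it changed no other call of a subunit. The cause of these differences was not tested. At 3 libraries a group, subunits that did not pass are not shown to be unchanged.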
